A study of Rattus norvegicus with 24 samples.

Results

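Interneuron migration cue and receptor genes were followed as a set of 9: the chemokine Cxcl12 and its receptors Cxcr4 and Ackr3, the neuropilin receptors Nrp1 and Nrp2 with the secreted semaphorins Sema3a and Sema3f, and the receptor Robo1 with its ligand Slit2. The members were chosen by gene symbol, and each of the 9 symbols was found among the 17420 genes of the expression table. All 9 lay above the authors' offset of 0.0001, the value that stands for no reads, in every one of the 24 pups, and so all 9 were among the 12654 genes tested. The question put to each member was whether its level in the embryonic rat forebrain differed between litters of saline dams and litters of dams given any of 3 treatments.

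Cortical interneurons are born in the ganglionic eminences of the ventral forebrain and reach the cortex and hippocampus by tangential migration. Cxcl12, made by the meninges and by progenitors and cells of the developing cortex, is sensed through Cxcr4, while Ackr3 binds and clears the chemokine and keeps Cxcr4 responsive. Sema3a and Sema3f, read by neuropilins in complex with plexins, are known as guidance signals that keep migrating interneurons out of the striatum. Slit2 is a guidance signal read by Robo receptors. Bulk tissue holds the cells that send these cues as well as those that read them.

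RNA came from the developing hippocampus and neocortex of Sprague-Dawley rat embryos on embryonic day 18, with 4 groups of 6 pups drawn from 2 litters of 3 pups each. In a pup's number, such as 1.3, the first digit was read as the litter and the second as the pup, which no label states. Dams of the saline, MAM and Poly I:C groups were treated on gestational day 17, and tissue was taken 18 hours later. MAM, methylazoxymethanol acetate, is a DNA-methylating agent that blocks proliferating cells and was given intraperitoneally at 22 mg/kg. Poly I:C, polyinosine:cytosine, is a double-stranded RNA analogue that sets off a maternal immune response and was given intraperitoneally at 7.5 mg/kg. Low Protein dams ate a diet of 6.1% protein from gestational day 11, against 20.3% in the control diet. The sources used here do not state which diet the injected dams ate, nor whether Low Protein dams were injected, so diet and injection cannot be told apart in that comparison. The dam was treated and the pup was sampled, and pups of a litter share a dam, so p-values over pups measure the spread between pups and may be too small for a statement about dams. No genotype differed between groups, and the sex of the pups was not given in the labels.

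Values are TPM as deposited, scaled to the same sum in every pup and divided by a length that matched each gene's genomic span, introns included, so genes with long introns have low values. On this scale, per kilobase of span, the mean over 24 pups was 15.7 for Cxcr4, 4.26 for Cxcl12, 2.14 for Ackr3, 1.27 for Sema3f, 0.855 for Nrp2, 0.605 for Nrp1, 0.105 for Robo1, 0.0777 for Slit2 and 0.0583 for Sema3a. The low position of Robo1 goes with its span of 1041 kb, against 3.91 kb for Cxcr4. Read numbers, recovered approximately from the steps between low values, came to about 25000000 to 64700000 per pup, and each member rested on an estimated 714 to 8664 reads in a pup. If reads were counted independently, counting error would be 1.07% to 3.74% of a value, while the coefficient of variation between pups of a group was 4.67% to 37.6%, except for Cxcr4 in Poly I:C at 2.01%. The interneuron markers chosen for this tissue, among them Gad1, Dlx1 and Lhx6, were above the offset in all 24 pups, with Dlx1 between 22.3 and 44.8 TPM.

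Differences from saline were small. Each treatment group had 1 of the 9 members below an unadjusted limma p of 0.05, each time a different gene and each time at a lower level than in saline pups. Sema3f, a repellent read mainly through Nrp2, was lower in Low Protein pups with a log2 difference of -0.23 (standard error 0.107, unadjusted p = 0.0463, adjusted p = 0.690). Sema3a, read through Nrp1, was lower in MAM pups with a log2 difference of -0.26 (standard error 0.123, unadjusted p = 0.0418, adjusted p = 0.495). Nrp2 was lower in Poly I:C pups with a log2 difference of -0.38 (standard error 0.153, unadjusted p = 0.0212, adjusted p = 0.433). The adjusted p-values are Benjamini-Hochberg values over all 12654 genes, and none of the 27 member comparisons passed at that level. For Low Protein and Poly I:C the study also required a log fold change of at least 0.6 in size, taken here as log2, a rule that 0 of 9 members met, with 0.656% of all genes meeting it for Low Protein and 0.933% for Poly I:C. For MAM the study used the p-value alone.

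The share of members called was like that of all genes. Over all genes tested, the share called was 7.20% for Low Protein, 10.0% for MAM and 9.44% for Poly I:C, so 1 member of 9 is close to the background. With the limma F test over all 4 groups, 12.8% of genes were under 0.05 and 0 of 9 members were, the lowest being Nrp2 (unadjusted p = 0.135, adjusted p = 0.509). No member had 6 treated values wholly apart from the 6 saline values in any of the 3 comparisons, a separation shown by 0.680% of genes for Low Protein, 0.901% for MAM and 0.450% for Poly I:C. Of the 27 differences 20 were below 0, but the 3 comparisons share their saline pups and the members vary together, so this count is a description. Over all genes, differences below 0 made up 54.8% for Low Protein, 71.5% for MAM and 49.0% for Poly I:C. The median difference of the members was -0.09, -0.07 and -0.08 in that order, beside -0.01, -0.07 and 0.00 for all genes.

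**Figure D1:**
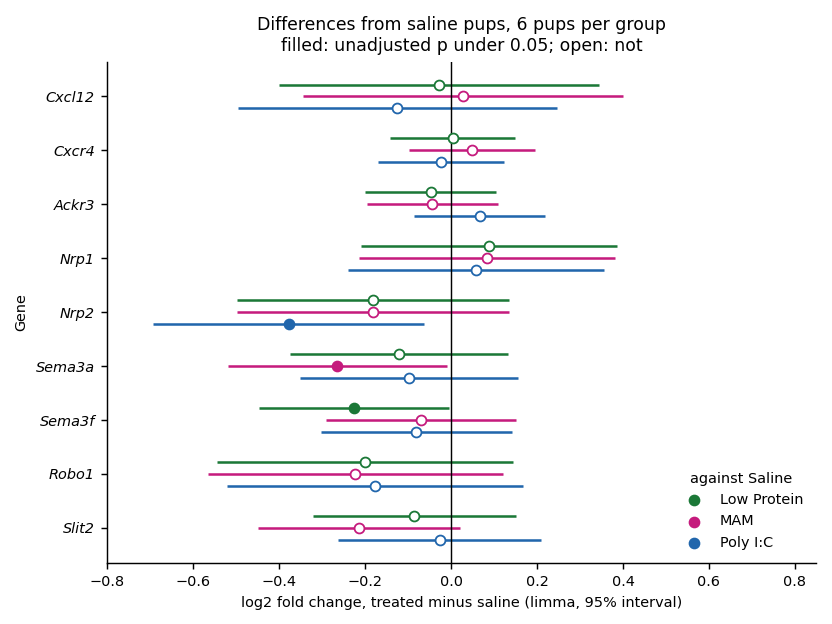
Log2 fold change of each gene, treated minus saline, on the x axis with its 95% interval from limma (24 pups, 6 per group), in green for Low Protein, magenta for MAM and blue for Poly I:C. The filled points mark an unadjusted p under 0.05: Sema3f in Low Protein (-0.23), Sema3a in MAM (-0.26) and Nrp2 in Poly I:C (-0.38); the other 24 intervals cover 0.

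Neither chemokine receptor passed the threshold in any comparison, and both had narrow intervals. Cxcr4, the signalling receptor carried by migrating interneurons and Cajal-Retzius cells, ran from 13.6 to 17.1 TPM in saline pups with a median of 15.8. Its range was 13.7 to 19.2 for Low Protein (median 15.4), 15.2 to 18.2 for MAM (median 15.7) and 14.7 to 15.7 for Poly I:C (median 15.3). All 4 groups overlapped, and the order of the group means, MAM 16.1, Low Protein 15.7, saline 15.6 and Poly I:C 15.3, had no step larger than the spread between pups. The log2 difference from saline was 0.00 for Low Protein (95% interval -0.14 to 0.15), 0.05 for MAM (-0.10 to 0.19) and -0.02 for Poly I:C (-0.17 to 0.12), the narrowest intervals of any member. Poly I:C pups lay closest together, with a standard deviation of 0.308 TPM against 1.22 in saline and 1.97 in Low Protein.

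Ackr3, the scavenging receptor, ran from 1.94 to 2.37 TPM in saline pups, 1.74 to 2.54 for Low Protein, 1.92 to 2.34 for MAM and 2.13 to 2.39 for Poly I:C. The group means stood in the order Poly I:C 2.25, saline 2.15, Low Protein 2.09 and MAM 2.08, and no neighbours in that order differed beyond their spread. Log2 differences were -0.05 for Low Protein (95% interval -0.20 to 0.10), -0.04 for MAM (-0.20 to 0.11, and 0.02 after scaling by median ratios) and 0.07 for Poly I:C (-0.09 to 0.22). Ackr3 and Cxcr4 varied together from pup to pup over the 24 pups (Pearson r = 0.67, permutation p = 0.00050, adjusted over the 36 member pairs 0.0090). Spearman's rho was 0.46 (permutation p = 0.026, adjusted 0.111), and without the 2 pups farthest from the median of Cxcr4 r was 0.53. Within groups r was 0.89 for saline, 0.85 for Low Protein and 0.92 for MAM but -0.10 for Poly I:C, the group in which Cxcr4 had its smallest spread.

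Promoter windows are shown for the chemokine ligand and its receptor pair. The RefSeq promoter table (rat build GRCr8, while the reads were aligned to rn6) held entries for 6 of the 9 members, 7 entries in all because Robo1 has 2 starts. The 250 bases before the annotated start are printed on the gene's own strand, 5′ to 3′. Capitals mark TATAAA, the letters of a TATA box, and GGGCGG or its reverse complement CCGCCC, the letters of a GC box bound by Sp1-type factors. The windows are chr4:152060531-152060780 on the plus strand for Cxcl12, chr13:42634289-42634538 on the minus strand for Cxcr4 and chr9:98247104-98247353 on the plus strand for Ackr3.
Cxcl12: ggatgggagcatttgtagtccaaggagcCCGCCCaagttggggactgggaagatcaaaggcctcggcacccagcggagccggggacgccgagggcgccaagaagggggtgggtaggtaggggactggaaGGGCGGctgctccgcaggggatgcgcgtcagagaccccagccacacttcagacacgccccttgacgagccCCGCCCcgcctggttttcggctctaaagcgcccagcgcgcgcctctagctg
Cxcr4: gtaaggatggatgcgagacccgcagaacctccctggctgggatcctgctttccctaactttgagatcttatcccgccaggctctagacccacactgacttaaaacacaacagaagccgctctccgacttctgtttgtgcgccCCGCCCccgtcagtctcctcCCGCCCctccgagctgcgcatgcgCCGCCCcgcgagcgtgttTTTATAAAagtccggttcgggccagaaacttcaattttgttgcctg
Ackr3: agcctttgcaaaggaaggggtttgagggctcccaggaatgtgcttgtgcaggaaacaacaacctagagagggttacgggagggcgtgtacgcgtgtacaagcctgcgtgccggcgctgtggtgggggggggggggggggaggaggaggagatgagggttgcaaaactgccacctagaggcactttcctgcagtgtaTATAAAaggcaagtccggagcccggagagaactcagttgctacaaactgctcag
Both receptor windows held TATAAA, starting 44 bases before the start in Cxcr4 and 54 bases before it in Ackr3, and in Cxcr4 a copy on the other strand overlapped it. On either strand, 12.9% of all 33469 promoter windows of this length held these letters (8.06% on the gene's own strand), and none of the windows of Cxcl12, Nrp1, Nrp2 or Robo1 did. GC box letters stood 3 times in Cxcl12 and 3 times in Cxcr4, and 30.5% of all windows held at least 1 copy. These are letter matches and say nothing of binding, and their part in the levels of either receptor was not tested.

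Cxcl12 did not separate the groups either, but it had the widest spread of the chemokine genes. Saline pups ran from 3.68 to 4.96 TPM (median 4.18), MAM pups from 3.69 to 5.24 (median 4.35) and Poly I:C pups from 2.87 to 4.71 (median 4.03). Low Protein pups ran from 2.63 to 6.90 (median 4.14), which took in the range of every other group. Log2 differences were -0.03 for Low Protein (95% interval -0.40 to 0.34), 0.03 for MAM (-0.34 to 0.40) and -0.13 for Poly I:C (-0.50 to 0.25).

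The level of Cxcl12 followed the markers of the brain's coverings and vessels. Its Pearson r over the 24 pups was 0.88 with the mean log2 level of 10 meninges markers such as Col1a1, Dcn and Foxc1 (Spearman's rho 0.81, permutation p = 1e-05, the smallest the resamples can give, adjusted over 108 relations 0.00027). It was 0.77 without the 2 pups of most extreme meninges score, and within groups 0.35 for saline, 0.94 for Low Protein, 0.97 for MAM and 0.83 for Poly I:C. Endothelial and mural markers gave r = 0.87 (rho 0.73) and microglia markers r = 0.82 (rho 0.73), each with an adjusted permutation p of 0.00027, and blood markers r = 0.65 (rho 0.64, adjusted p = 0.0058). The Low Protein pups with the most Cxcl12, 2.2 at 6.90 TPM and 1.1 at 5.87, had the highest meninges scores of all pups, 1.66 and 0.91 on the log2 scale with the saline mean at 0. Low Protein pup 1.3, with the least Cxcl12 at 2.63 TPM, had the lowest score at -1.41. The meninges score ran from -0.48 to 0.34 in saline pups, -0.72 to 0.55 in MAM and -0.42 to 0.34 in Poly I:C, and every one of its 10 markers was above the offset in all pups. In bulk tissue, fewer cells of a type and less RNA per cell cannot be told apart, and the part that covering tissue played in the Cxcl12 values was not tested.

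**Figure D2:**
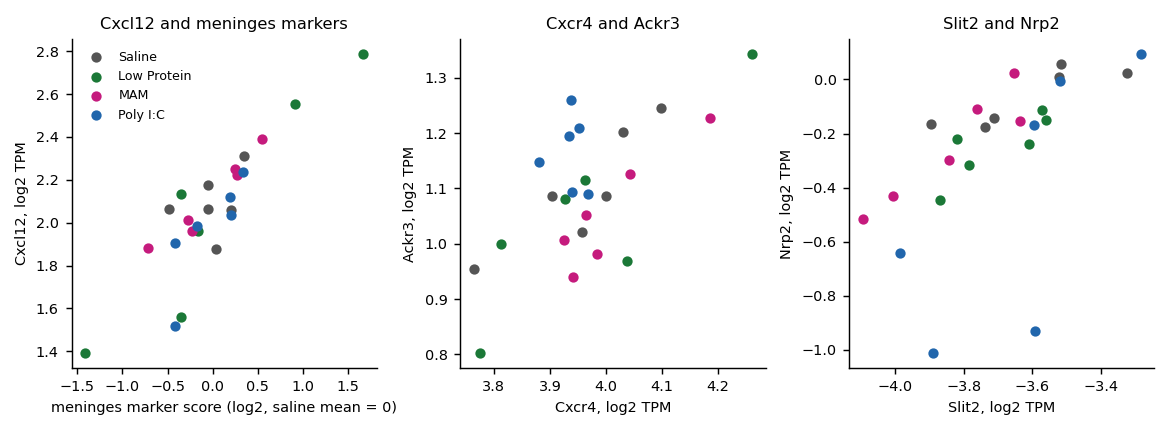
Each point is 1 of 24 pups, coloured by group (grey saline, green Low Protein, magenta MAM, blue Poly I:C): log2 TPM of Cxcl12 against the meninges marker score (left, r = 0.88), of Ackr3 against Cxcr4 (middle, r = 0.67) and of Nrp2 against Slit2 (right, r = 0.59). Green Low Protein points form both ends of the left plot, and the 2 blue points at the bottom of the right plot are Poly I:C pups 1.3 and 2.2, with Nrp2 at 0.525 and 0.497 TPM.

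Nrp2, the neuropilin that reads Sema3f, was the member with the largest difference, and its Poly I:C pups were divided. Saline pups lay between 0.885 and 1.04 TPM with a median of 0.955. Poly I:C pups 1.3, 2.2 and 2.3 had 0.525, 0.497 and 0.641 TPM, below every saline pup. Of the others, 1.2 and 2.1 lay within the saline range at 0.890 and 0.995, and 1.1 lay just above it at 1.07. The spread in Poly I:C, a standard deviation of 0.247 TPM, exceeded the 0.0708 in saline, and the low values came from both litters. Between pups alone, the exact two-sided permutation test gave p = 0.123 for Poly I:C, so the call by limma rested on the spread pooled over all 24 pups. The limma call was lost without Poly I:C pup 1.3 or 2.2 (unadjusted p = 0.0705 and 0.0754, adjusted p = 0.462 and 0.801) and when the 12 pups compared were fitted alone (unadjusted p = 0.0642, adjusted p = 0.681). The 3 low pups also had the 3 lowest scores of their group, -0.30, -0.22 and -0.25, for the longest 10% of all genes (1243 genes over 132.8 kb of span), where the other Poly I:C pups lay at 0.05 to 0.26. They had the 3 lowest interneuron marker scores of the group as well, -0.28, -0.53 and -0.44, beside -0.09 to 0.03 in the other 3. Nrp2 and the interneuron score gave r = 0.84 for Poly I:C, against -0.46 for saline, -0.50 for Low Protein and 0.27 for MAM, and over the 24 pups r was 0.41 (rho 0.45, permutation p = 0.050, adjusted 0.192). The part of any of these scores in the Nrp2 values was not tested.

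Low Protein pups had 0.735 to 0.925 TPM of Nrp2 (median 0.853), with 4 of 6 below the lowest saline pup and all 6 below the saline median. The exact permutation test gave p = 0.0238 (the smallest possible p is 0.00216), while limma over all groups gave a log2 difference of -0.18 (95% interval -0.50 to 0.14, adjusted p = 0.848). Fitted on the 12 Low Protein and saline pups alone, limma gave an unadjusted p of 0.0257 (adjusted p = 0.461). MAM pups ran from 0.699 to 1.02 TPM (median 0.856), a log2 difference of -0.18 (95% interval -0.50 to 0.13). As in Poly I:C, pups 1.3, 2.2 and 2.3 were the lowest of the MAM group, at 0.741, 0.814 and 0.699 TPM. They also had its lowest scores for long genes, -0.30, -0.21 and -0.27, where the other MAM pups lay at -0.14 to 0.07. The other groups did not divide by these numbers: pup 2.2 was the highest in Low Protein at 0.925, and pup 1.1 the lowest in saline at 0.885. The means stood in the order saline 0.958, MAM 0.849, Low Protein 0.845 and Poly I:C 0.769, and no step between treated groups was larger than the spread between pups.

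Nrp1, the neuropilin that reads Sema3a and also a receptor for vascular growth factors, showed no call in any comparison. The means were 0.586 TPM for saline, 0.616 for Low Protein, 0.611 for MAM and 0.606 for Poly I:C. Log2 differences were 0.09 for Low Protein, 0.08 for MAM and 0.06 for Poly I:C, with 95% intervals of -0.21 to 0.39, -0.22 to 0.38 and -0.24 to 0.36. Saline pup 2.1 stood apart at 0.356 TPM, while the other 5 saline pups had 0.562 to 0.687, and without it all 3 differences turned below 0, to -0.05, -0.05 and -0.08. That pup also had the lowest score for pallial neuron markers of all pups (-0.58) and the highest for subpallial and striatal markers (0.88) and for interneuron markers (0.50). Over 24 pups Nrp1 followed the pallial neuron score with r = 0.76 (rho 0.62, permutation p = 0.00015, adjusted 0.0018), and with r = 0.51 once the 2 pups of most extreme score were left out. Within groups that r was 0.99 for saline, 0.50 for Low Protein, 0.63 for MAM and 0.58 for Poly I:C. What the dissection contributed to these values was not tested.

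Sema3f, the semaphorin called in Low Protein, ran from 1.13 to 1.53 TPM in saline pups with a median of 1.33. Low Protein pups ran from 0.903 to 1.30 (median 1.22), and all 6 were below the saline median, 2 of them below the lowest saline pup. The exact permutation test gave p = 0.0563. MAM pups ran from 1.14 to 1.60 (median 1.26) and Poly I:C pups from 1.08 to 1.55 (median 1.28), with log2 differences of -0.07 and -0.08 whose 95% intervals were -0.29 to 0.15 and -0.30 to 0.14. The Low Protein call was at the edge of the threshold: it was lost when any 1 of 13 of the 24 pups was left out (p up to 0.146, without Low Protein 2.3). These were saline 1.1, 1.3, 2.1, 2.2 and 2.3, Low Protein 1.1, 2.1 and 2.3, MAM 1.1, 1.2 and 2.2, and Poly I:C 1.1 and 2.2, the last 5 acting through the shared spread alone. Fitted on the 12 Low Protein and saline pups alone, Sema3f lost its call (unadjusted p = 0.0533, adjusted p = 0.553), and Nrp2 was the 1 member called in its place.

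Markers of interneurons moved with Sema3f. In Low Protein pups 8 of 13 interneuron markers were lower at an unadjusted p under 0.05 and none higher (median log2 difference -0.37, lowest adjusted p = 0.636), where 4.55% of all genes were called lower. In MAM 3 of the 13 were lower (median -0.23) and in Poly I:C 2 of 13 (median -0.17), with none higher, beside 7.91% and 5.48% of all genes, and all 13 differences were below 0 in each of the 3 comparisons. Their mean score ran from -0.62 to -0.14 for Low Protein, -0.26 to 0.50 for saline, -0.37 to -0.05 for MAM and -0.53 to 0.03 for Poly I:C, and none of the 13 was at the offset in any pup. The 3 comparisons share their saline pups, so they are not independent. In saline the 0.50 was pup 2.1 alone, and the next highest was pup 1.1 at 0.06. Over 24 pups Sema3f and that score gave r = 0.57 (rho 0.74, permutation p = 0.0048, adjusted 0.039) and r = 0.63 without the 2 pups of most extreme score. Within groups r was 0.31 for saline, 0.46 for Low Protein, 0.34 for MAM and 0.80 for Poly I:C. The share of ventral tissue in each dissection was not tested as a source of these values.

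Sema3a, a chemorepellent for axons and migrating cells, ran from 0.0502 to 0.0719 TPM in saline pups with a median of 0.0638. MAM pups ran from 0.0449 to 0.0671 (median 0.0515), 5 of 6 below the saline median and 2 below the lowest saline pup. The exact permutation test for MAM gave p = 0.0455. Low Protein pups ran from 0.0475 to 0.0713 (median 0.0578) and Poly I:C pups from 0.0464 to 0.0722 (median 0.0587), with log2 differences of -0.12 (95% interval -0.38 to 0.13) and -0.10 (-0.35 to 0.16). In MAM the median of all genes was itself at -0.07 on the log2 scale, and after scaling by median ratios the Sema3a difference was -0.20 (unadjusted p = 0.0738), so the call ended there. It also ended without saline pup 1.1, 1.3, 2.2 or 2.3 or MAM pup 1.1, 1.2, 1.3 or 2.2, with p up to 0.0974.

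**Figure D3:**
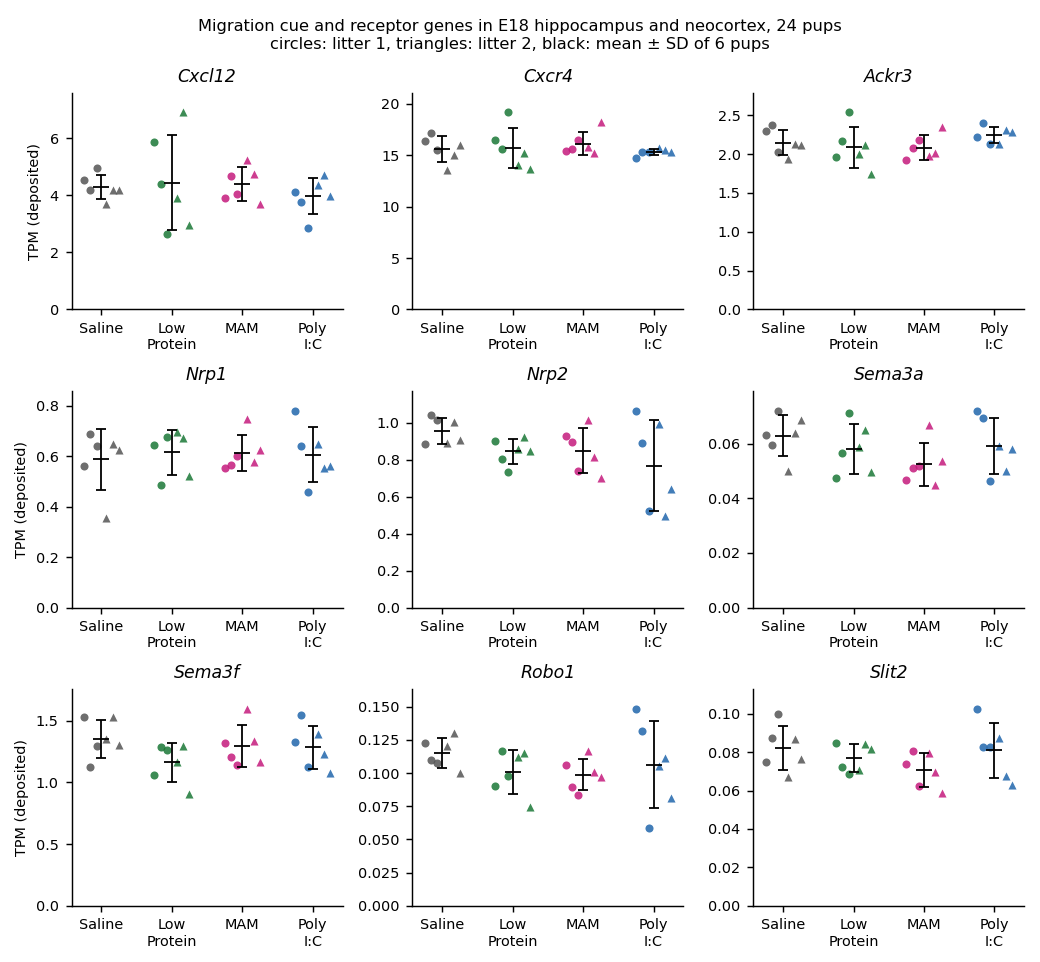
Deposited TPM (y axis, from 0) of each gene in the 24 pups by group, with circles for litter 1, triangles for litter 2 and black bars for the mean and standard deviation of 6 pups. The groups overlap in every panel: saline and Low Protein Sema3f run from 1.13 to 1.53 and from 0.903 to 1.30 TPM, and 3 Poly I:C pups lie below all saline pups for Nrp2.

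Robo1 and Slit2, the receptor and ligand of the Slit pathway, passed the limma threshold in no comparison. Robo1 ran from 0.0998 to 0.130 TPM for saline, 0.0744 to 0.117 for Low Protein, 0.0833 to 0.117 for MAM and 0.0586 to 0.149 for Poly I:C. Its log2 differences were -0.20 for Low Protein (95% interval -0.55 to 0.14), -0.22 for MAM (-0.57 to 0.12) and -0.18 for Poly I:C (-0.52 to 0.17). For MAM the exact permutation test gave p = 0.0368, with 5 of 6 pups below the saline median, while limma gave an adjusted p of 0.598. Poly I:C pups held both the highest and the lowest Robo1 value of the 24, 0.149 in pup 1.1 and 0.0586 in pup 1.3, both of litter 1.

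Slit2 ran from 0.0671 to 0.0998 TPM for saline, 0.0684 to 0.0847 for Low Protein, 0.0585 to 0.0805 for MAM and 0.0631 to 0.103 for Poly I:C. All 6 MAM pups were below the saline median and 2 below the lowest saline pup, with a log2 difference of -0.21 (95% interval -0.45 to 0.02, adjusted p = 0.518, exact permutation p = 0.0866). In Low Protein the difference was -0.09 (95% interval -0.32 to 0.15) and in Poly I:C -0.03 (-0.26 to 0.21). Slit2 followed the markers of Cajal-Retzius cells, the early-born surface neurons that secrete reelin (r = 0.73, rho 0.69, permutation p = 7e-05, adjusted 0.00094), and r was 0.65 without the 2 pups of most extreme score. Within groups r was 0.30 for saline, 0.45 for Low Protein, 0.93 for MAM and 0.94 for Poly I:C. The score of these 7 markers ran from -0.27 to 0.17 for saline, -0.36 to 0.25 for Low Protein, -0.40 to 0.01 for MAM and -0.42 to 0.29 for Poly I:C. Their part in the MAM values was not tested.

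The exact permutation test put 3 of 27 member comparisons under 0.05: Nrp2 in Low Protein, Robo1 in MAM and Sema3a in MAM. Over all genes the same test put 9.46% under 0.05 for Low Protein, 13.6% for MAM and 7.82% for Poly I:C, and the lowest adjusted exact p of any member over all genes was 0.341. Only the last of these was also called by limma, while Sema3f in Low Protein (exact p = 0.0563) and Nrp2 in Poly I:C (exact p = 0.123) were called by limma alone.

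Companion genes of the same pathways were read as a frame. Of 8 further Slit and Robo genes and 8 further semaphorin and plexin genes tested, none was called in any comparison. Of 6 chemokine signalling genes, Gnai1, an inhibitory G protein subunit used by Cxcr4, was lower in Low Protein (log2 difference -0.21, adjusted p = 0.671) and in MAM (-0.26, adjusted p = 0.490), both with an unadjusted limma p under 0.05. Of 18 other migration cues, Gfra1, a GDNF receptor, was lower in Low Protein (-0.63, adjusted p = 0.673) and MAM (-0.65, adjusted p = 0.495). In MAM the netrin gene Ntn1 was lower (-0.86, adjusted p = 0.495), and in Poly I:C the ephrin gene Efnb3 (-0.30, adjusted p = 0.439), the latter beside 2 more of the 18. Of the 40 companions, 2 were called lower for Low Protein, 3 for MAM and 3 for Poly I:C, with none higher, where 4.55%, 7.91% and 5.48% of all genes were called lower. The split of calls over all genes moved with the scaling: the share that were higher went from 36.8% to 50.5% for Low Protein and from 21.2% to 63.4% for MAM with median ratios, and from 42.0% to 28.2% for Poly I:C with upper quartiles. The median log2 difference of the 40 was -0.12, -0.16 and -0.13 in the same order.

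Members varied together across pups. Of 36 pairs 29 had r above 0 over the 24 pups, and 6 pairs had an adjusted permutation p of r under 0.05, all positive. The same shares for pairs of other genes were not computed, so these counts are a description. Apart from Cxcr4 with Ackr3, these were Sema3f with Robo1 (r = 0.71, rho 0.75, adjusted p = 0.0040), Nrp1 with Sema3a (r = 0.60, rho 0.68, adjusted p = 0.013) and Nrp2 with Slit2 (r = 0.59, rho 0.75, adjusted p = 0.017). The others were Nrp2 with Robo1 (r = 0.57, rho 0.49, adjusted p = 0.030) and Sema3a with Robo1 (r = 0.56, rho 0.53, adjusted p = 0.025). Without the 2 pups farthest on the first gene named, r was 0.68, 0.59, 0.86, 0.59 and 0.51 for these 5 pairs. Within groups the Sema3f and Robo1 pair held at 0.69 to 0.90, and Nrp2 and Slit2 at 0.72 to 0.94, whereas Nrp2 with Robo1 gave -0.05 in saline and 0.03 in Low Protein, and Sema3a with Robo1 gave -0.42 in saline. By rho, Cxcr4 with Ackr3 (adjusted permutation p = 0.111), Nrp2 with Robo1 (0.086) and Sema3a with Robo1 (0.064) did not pass. Nrp1 with Nrp2 passed by rho alone (rho 0.59, adjusted permutation p = 0.027, against 0.149 for r).

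Several of these genes followed the score of long genes. Nrp2, Sema3a, Sema3f, Robo1 and Slit2 each followed the mean log2 level of the longest 10% of genes, with r = 0.77, 0.72, 0.56, 0.74 and 0.77 and adjusted permutation p between 0.00027 and 0.039, and rho was 0.64 to 0.81. Without the 2 pups of most extreme score those r were 0.73, 0.66, 0.59, 0.63 and 0.83. Nrp1, Sema3a, Robo1 and Slit2 also have spans over 132.8 kb, but all members were left out of the 1243 genes of the score. Of these long members Nrp1 did not pass by r (r = 0.45, adjusted permutation p = 0.121) but did by rho (0.54, adjusted 0.041). Sema3f, with a span of 28.9 kb, passed by both. For Cxcr4 r was -0.14 and for Ackr3 0.03. In MAM pups the score ran from -0.30 to 0.07, in Poly I:C from -0.30 to 0.26, in Low Protein from -0.17 to 0.04 and in saline from -0.07 to 0.14. How many of all genes tested follow this score was not computed, so the relation cannot be called particular to the members. The part that this shared movement of long genes played in the semaphorin, Nrp2 and Slit pathway values was not tested.

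**Figure D4:**
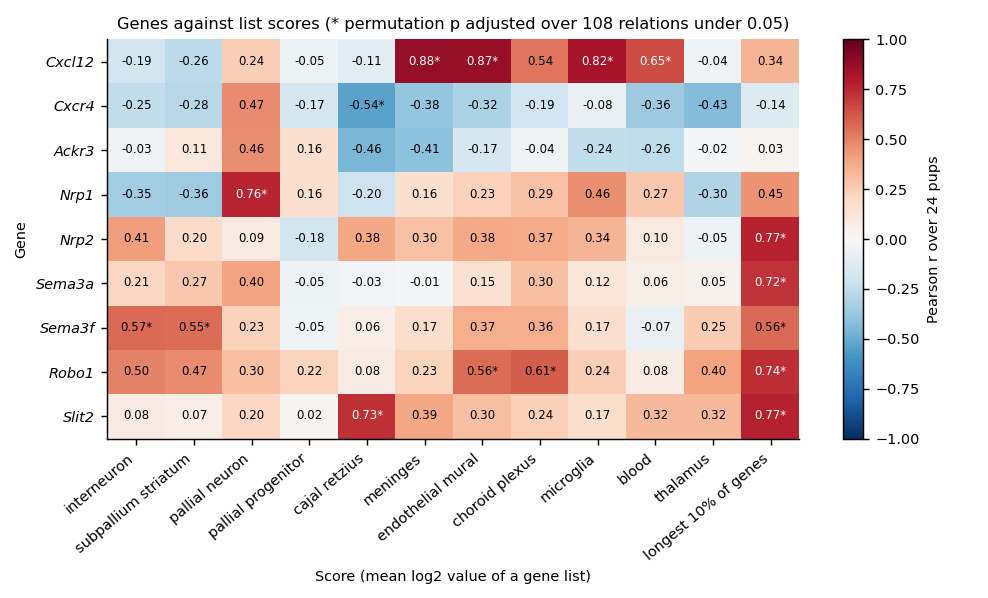
Pearson r over 24 pups between the log2 TPM of each gene (rows) and the mean log2 level of each marker list or of the longest 10% of genes (columns), with colour from blue at -1 to red at 1 and an asterisk where the permutation p adjusted over 108 relations is under 0.05. The asterisks of Cxcl12 sit on meninges (0.88), endothelial and mural (0.87), microglia (0.82) and blood (0.65), while 5 of the other genes carry one in the column of long genes.

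Other relations were fewer. In all, 16 of 108 had an adjusted permutation p under 0.05. Cxcr4 ran against the Cajal-Retzius score with r = -0.54 (adjusted p = 0.041), although rho was -0.43 (adjusted p = 0.159), and r was -0.59 without the 2 pups of most extreme score. Within groups it was -0.60 for saline, -0.59 for Low Protein, -0.84 for MAM and -0.43 for Poly I:C. Sema3f also followed the subpallial and striatal score (r = 0.55, rho 0.63, adjusted p = 0.041), with 0.36 to 0.73 within groups. Robo1 followed the endothelial and mural score (r = 0.56, rho 0.56, adjusted p = 0.041) and the choroid plexus score (r = 0.61, rho 0.44, adjusted p = 0.030), the latter dropping to r = 0.23 without its 2 most extreme pups.

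For Cxcr4, more of the variation lay between litters of a group than between groups. Of the sum of squares of log2 Cxcr4 over 24 pups, 5.67% lay between groups, 44.2% between the 2 litters of a group and 50.2% between pups of a litter. The degrees of freedom alone would give 13%, 17.4% and 69.6%. In Low Protein the Cxcr4 mean was 17.1 TPM in litter 1 and 14.3 in litter 2, with no overlap, and in saline it was 16.3 and 14.9. Slit2 had 21.3%, Ackr3 20.1%, Nrp1 11.7% and Cxcl12 9.50% between litters of a group, each likewise more than its share between groups. For Nrp1 and Cxcl12 that was still under the 17.4% of the degrees of freedom. Over all genes tested, limma estimated a correlation of 0.009 between pups of a litter, and the median litter share was not computed. The share between groups was highest for Nrp2 at 22.4%, followed by Sema3f at 18.7%, Sema3a at 18.6%, Slit2 at 17.0% and Ackr3 at 14.5%, beside a median of 15.2% over all genes tested. Nrp1 at 2.17%, Cxcl12 at 3.67%, Cxcr4 at 5.67%, Robo1 at 9.52% and also Ackr3 had less between groups than that median.

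**Figure D5:**
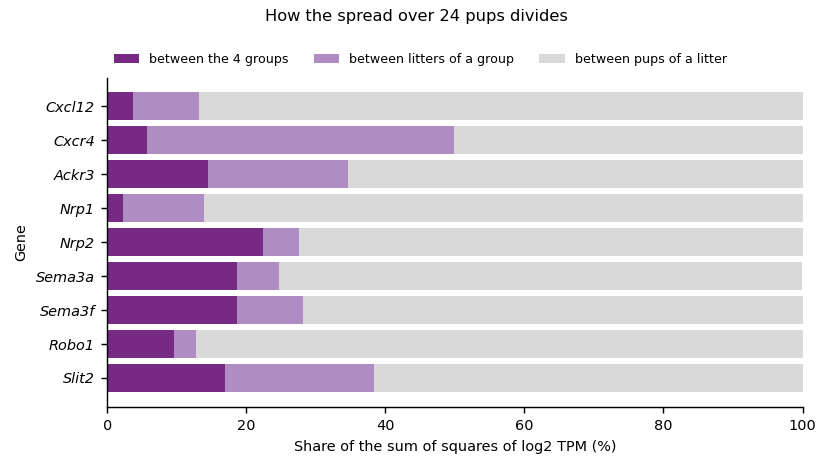
Share (x axis, %) of the sum of squares of log2 TPM over 24 pups that lies between the 4 groups (dark), between the 2 litters of a group (light purple) and between pups of a litter (grey), for each gene. Cxcr4 has the widest litter share at 44.2%, and between pups of a litter lie 50.2% to 87.2% of the spread.

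The genes whose log2 levels were most like each member over the 24 pups are given as a description. For Cxcl12 they were Tgm2 (r = 0.94), Prelp (0.93) and Emp1 (0.93), and for Cxcr4 Scrg1 (0.75), Fam107b (0.72) and Nxt2 (0.71). For Ackr3 they were Supt7l (0.72), Zbtb2 (0.71) and Rad54b (0.69), the weakest likeness of the 9. Nrp1 was closest to Tcf4 (0.89), Bicd1 (0.88) and Nr4a3 (0.87), and Nrp2 to Timp2 (0.92), Kif5a (0.92) and Cadm3 (0.91). Sema3a was closest to Epha7 (0.87), an ephrin receptor, and to Taok1 (0.86) and Prkaa2 (0.86), and Sema3f to Slc35a2 (0.88), Rnf123 (0.85) and Acap3 (0.84). Robo1 was closest to Ndst1 (0.93), an enzyme of heparan sulphate synthesis, and to Neurl4 (0.93) and Bace1 (0.93), and Slit2 to Col11a1 (0.89), Plagl1 (0.86) and Kcnj6 (0.85). Each r is among the 3 highest over all genes tested, and all of these genes were measured in the same libraries.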

How the data were processed

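RNA of 24 rat pups (4 groups of 6, from 2 litters each) was sequenced from stranded mRNA libraries. The authors trimmed reads in Partek Flow at a Phred quality of 30 and a minimum length of 25, aligned them to rn6 with STAR 2.4.1d, and quantified them with the Partek E/M tool against RefSeq transcripts. The values the authors deposited are TPM with an offset of 0.0001, and every column sums to 70350.1. Read numbers are estimates: 46.4% to 53.9% of low values fell within 0.05 of a whole multiple of a pup's read step, where chance gives 10%, using spans matched to 97.5% of genes from RefSeq (GRCr8).

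Log2 TPM of the 12654 genes above the offset in all pups was fitted with limma 3.58.1 (R 4.3.3) on group, with 1 spread for all 24 pups and Benjamini-Hochberg adjustment. Calls use an unadjusted p under 0.05, as the study did for MAM. Its further fold change threshold for Low Protein and Poly I:C is an alternative chosen after seeing the data. The study's filter, a mean above 1 in every group, keeps 4 of the 9 members, because values are divided by genomic span, and is an alternative here. Single members were tested by exact two-sided permutation of 6 against 6 pups, over all splits. Relations across pups used 1e+05 permutations. Scores are mean log2 values of a list, with the saline mean at 0. Both tests were checked on simulated data. The members and lists were chosen with earlier results of these data known. All 9 members are named. From the 4 companion lists, genes with an unadjusted p under 0.05 in any comparison are named, at most the 3 of lowest p per list, and for likeness the 3 genes of highest r. The alternatives were other filters, pseudocounts, scalings, a variance trend, litter terms, a block on the number in the label, and leaving out each pup or litter.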

Additional observations from a re-analysis of the deposited data

Results flagged for a closer look

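Nrp1 in saline pup 2.1 stood apart from its group. The pup had 0.356 TPM, while the other 5 saline pups had 0.562 to 0.687, and the gap to the nearest of them took up 0.695 of the range of the group on the log2 scale, above Dixon's 95% limit for 6 samples. Of 36 groups of 6 examined, 4 for each of the 9 genes, this was the 1 that passed the limit, and chance alone would pass about 1.8. The marker scores of the pup are given with Nrp1 above.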

How the results depend on the processing

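The calls on members were near the threshold and depended on the settings. Leaving out 1 pup at a time, the number of members called ran from 0 to 1 against saline in Low Protein (13 pups took it to 0), from 0 to 2 in MAM, from 0 to 1 in Poly I:C and from 0 to 1 over the 4 groups (1 without Poly I:C pup 1.1 or 2.1), and the permutation count ran from 1 to 4. The Low Protein count was 0 without saline litter 1 or 2, Low Protein litter 2, MAM litter 1 or Poly I:C litter 2. The MAM count was 0 with log2(value + 1), with scaling by median ratios or upper quartiles, with a variance trend, without saline litter 1 or MAM litter 1, and with the study's filter, which tests 4 members, and it was 2 with only the 12 pups compared and with litter means as replicates. The Poly I:C count was 0 with the study's filter, with only the 12 pups compared and without saline litter 1 or 2 or Poly I:C litter 2. With a log2 difference of at least 0.6 in size required as well, an alternative chosen after seeing the data, the Low Protein and Poly I:C counts were 0 (83 and 118 of all genes). Over the 4 groups the count was 1, Nrp2, with litter means and without Poly I:C litter 1. The permutation count of 3 was 1 with median ratios and without saline litter 1 or 2 or MAM litter 1. Apart from the filter, which removes members, and the fold rule, which is stricter, the cause was not tested. The lowest adjusted p of any member under any setting was 0.0894, for Nrp2 in the Poly I:C comparison when litter 1 of that group was left out.

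Of 1146 recomputed member differences, 39 changed sign, none with a main difference beyond 0.13 in size and none with an unadjusted p under 0.05. With median ratios Ackr3 in MAM was 0.021. Leaving out the litter named in parentheses gave, for Low Protein, Cxcl12 0.063 (saline 1) and 0.0090 (Low Protein 1), Cxcr4 -0.066 (saline 2) and -0.12 (Low Protein 1), Ackr3 0.0094 (saline 1) and 0.043 (Low Protein 2), Nrp1 -0.041 (saline 2) and Slit2 0.0063 (saline 1). For MAM it gave Cxcl12 -0.064 (saline 2) and -0.027 (MAM 2), Cxcr4 -0.021 (saline 2), Ackr3 0.013 (saline 1), Nrp1 -0.046 (saline 2) and -0.0041 (MAM 2) and Sema3f 0.0044 (MAM 1). For Poly I:C it gave Cxcl12 0.022 (Poly I:C 1), Cxcr4 0.046 (saline 1), Nrp1 -0.071 (saline 2) and Slit2 0.065 (saline 1) and 0.13 (Poly I:C 2). Leaving out 1 pup moved Low Protein values of Cxcl12 between -0.17 and 0.11, Cxcr4 between -0.056 and 0.041, Ackr3 between -0.11 and 0.0020 and Nrp1 between -0.049 and 0.15. MAM values moved between -0.027 and 0.075 for Cxcl12 and between -0.055 and 0.13 for Nrp1, and Poly I:C values between -0.063 and 0.0042 for Cxcr4, -0.079 and 0.14 for Nrp1 and -0.099 and 0.042 for Slit2.

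The numbers in the labels (1.1 to 2.3) recur in every group. Over 36 same-numbered pairs the deviations correlated with r from -0.16 to 0.33 (median 0.04, against 0.00 for other numbers). Of the 24 pups, 7 were closest to a pup of their own number. The labels do not say what pups of the same number share, and this was not tested. With that number as a replicate block, 1 member was called for Low Protein (of 1142 genes), 0 for MAM (of 1582) and 1 for Poly I:C (of 1397).

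Over all genes, calls without the block numbered 911 for Low Protein, 1270 for MAM and 1194 for Poly I:C, and 1615 over the 4 groups. The study's filter gave 419, 572 and 506 in that order, of 5086 genes, and 835 over the 4 groups. Litter means gave 702 in MAM and 714 over the 4 groups. MAM calls fell to 702, 841 and 806 without saline pup 1.3, MAM pup 1.3 and MAM pup 2.2, and to 441, 723 and 627 without saline litter 1, MAM litter 1 and MAM litter 2. Poly I:C calls were 660 without saline litter 2, 2352 without Poly I:C litter 1 and 575 without its litter 2. Low Protein calls were 525 without saline litter 2, and those over the 4 groups 889 and 992 without MAM litter 1 and 2. The share of calls that were higher moved with scaling: from 36.8% to 50.5% in Low Protein and from 21.2% to 63.4% in MAM with median ratios (45.2% with upper quartiles), and from 42.0% to 28.2% in Poly I:C with upper quartiles. Depth is known only as an estimate, and so is the counting error.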
